A study of Mus musculus with 4 samples.

Results

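The genes of heme synthesis and heme breakdown were examined in the livers of WT and *Usp21* KO mice. The 9 genes were chosen by symbol from the 35739 genes of the TPM table: *Alas1*, *Alad*, *Uros*, *Urod*, *Cpox* and *Fech* of synthesis, and *Hmox1*, *Blvra* and *Blvrb* of breakdown. All 9 symbols were found and all 9 passed the filter on low values (a mean of at least 1 TPM). There were 2 libraries per genotype, WT replicates 2 and 3 and *Usp21* KO replicates 1 and 3, each from liver RNA. The mice were littermates of 10–11 weeks on a normal diet, and no treatment is described for either genotype. In the constitutive KO mice, Cre recombinase (its driver is not given) had removed exons 3 and 4 of *Usp21*, a ubiquitin protease gene, and the deleted allele came from ES cells of another strain, so that the background of the mice was mixed. The hour of liver collection and the time since the last meal were not given in the sources used here. *Usp21* itself had TPM values of 4.07 and 6.29 in WT against 1.64 and 2.93 in KO, both KO values being below the WT values, and the exons left in the KO allele can still give reads.

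Heme is an iron-holding ring that cytochromes P450, catalase and the respiratory chain need to work, and the liver is the main site of its synthesis outside the bone marrow. ALAS1 joins glycine and succinyl-CoA in the mitochondria as the first and rate-limiting step. ALAD, UROS and UROD act in the cytosol, and CPOX, PPOX and FECH finish the ring and insert the iron back in the mitochondria. Heme oxygenase, encoded by *Hmox1* and *Hmox2*, opens the ring to biliverdin, which the biliverdin reductase BLVRA turns into bilirubin. BLVRB is the other enzyme named biliverdin reductase. Hepatic *Alas1* is known to be repressed by heme, and to respond to fasting through PGC-1α and to the circadian clock.

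Promoter sequences from RefSeq (build GRCm38) were matched to 7 of the 9 genes, in 11 windows that reach from 250 bases before to 50 bases after a start site. 3 of them are shown over the bases before the start site, because they belong to the first enzyme, to the gene whose genotypes lay apart, and to a gene with the same motif whose genotypes did not. Capitals mark the motifs found on either strand: CACGTG, the E-box that CLOCK and BMAL1 can bind, and GCATGCGC, a core of the NRF1 (nuclear respiratory factor) element, which reads on both strands in overlap. The windows lie at chr9:106247731-106247980 (*Alas1*, reverse strand), chr4:62519910-62520159 (*Alad*, reverse strand) and chr4:116994414-116994663 (*Urod*, reverse strand).
Alas1: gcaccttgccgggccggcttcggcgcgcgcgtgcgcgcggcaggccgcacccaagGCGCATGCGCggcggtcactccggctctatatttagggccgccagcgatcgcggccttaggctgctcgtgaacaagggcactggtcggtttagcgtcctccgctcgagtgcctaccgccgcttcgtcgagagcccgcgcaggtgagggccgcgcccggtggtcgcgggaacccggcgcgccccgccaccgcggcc
Alad: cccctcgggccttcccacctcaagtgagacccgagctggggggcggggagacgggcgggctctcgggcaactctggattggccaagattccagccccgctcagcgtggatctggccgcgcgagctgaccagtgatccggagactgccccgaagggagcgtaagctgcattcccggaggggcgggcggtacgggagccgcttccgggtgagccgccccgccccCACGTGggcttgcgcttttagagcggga
Urod: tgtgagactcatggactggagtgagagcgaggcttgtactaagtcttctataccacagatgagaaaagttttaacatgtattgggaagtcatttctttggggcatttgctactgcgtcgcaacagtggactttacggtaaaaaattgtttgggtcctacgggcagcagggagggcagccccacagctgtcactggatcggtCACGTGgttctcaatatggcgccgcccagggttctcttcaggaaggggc

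The E-box was present in 4 of the 11 windows, which belong to 3 of the 7 genes (*Alad*, *Urod* and *Uros*), compared with 7.15% of all 32851 RefSeq windows of the same length. In *Alad* it begins 28 bases before the start site of the window shown, and another lies 105 bases before a second start site. In *Urod* it begins 49 bases before the start site. The NRF1 core was found in 2 of the 11 windows, compared with 2.71% of all windows. Both are windows of *Alas1* that overlap and hold the same site, which is thus counted in each. The antioxidant response element TGACNNNGC, a site for NRF2 and BACH1, was found in 1 of the 11 windows, of *Blvra*, and in 12.4% of all windows, and AGGTCA, read by nuclear receptors, in 0 of the 11 windows and in 16.3% of all windows. These matches describe the letters of the windows and do not show binding.

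No difference between WT and *Usp21* KO livers passed the test in any of the 9 heme genes. *Alad* was the 1 gene of the 9 lower in both KO libraries than in either WT library, beside 10.9% of all tested genes. Genotypes were compared on log2(TPM + 1) with the two-sided test of limma, and p-values were adjusted (Benjamini-Hochberg) for all 9581 genes that passed the filter. An adjusted p under 0.05 was reached by 0 of the 9 genes, compared with 0.0835% of all tested genes. An unadjusted p under 0.05 was likewise reached by 0 of the 9, compared with 10.5% of all tested genes. *Alad* came closest, with an unadjusted p of 0.0501 in limma, just above the threshold. The deleted gene itself, *Usp21*, had a limma adjusted p of 0.464. In simulated data with the means and spreads of these libraries, 200 genes were given a true log2 fold change of 1. Limma gave an adjusted p under 0.05 to 0% of them, so 0 adjusted calls do not show that a gene is unchanged. It gave an unadjusted p under 0.05 to 167 of the 200. In the CPM table *Alad*, *Uros* and *Urod* entered the fits with 3, 4 and 2 recovered reads over all 4 libraries, so that the 0 adjusted and 0 unadjusted calls of edgeR and DESeq2 among them say nothing on a difference. A change of at least 2-fold was found for 0 of the 9 genes and for 3.68% of all tested genes. By mean, 6 of the 9 genes were lower and 3 higher in KO, and the median of their log2 fold changes was -0.04. The median over all tested genes was 0.15, and 33.3% of them were lower in KO. When the libraries were scaled to an equal upper quartile, the median of all tested genes moved to 0.03 and all 9 heme genes had a log2 fold change below 0. For 8 of the 9 genes the difference between genotypes was smaller than the gap between the libraries within at least 1 genotype. The share of all tested genes for which this holds was not computed. Over all tested genes the median absolute log2 fold change was 0.263. The median gaps were of like size, at 0.241 within WT and 0.285 within KO, so the count is not particular to the heme genes. The smallest p of an exact permutation test for a single gene is 0.333 in a design of 2 against 2.

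**Figure D1:**
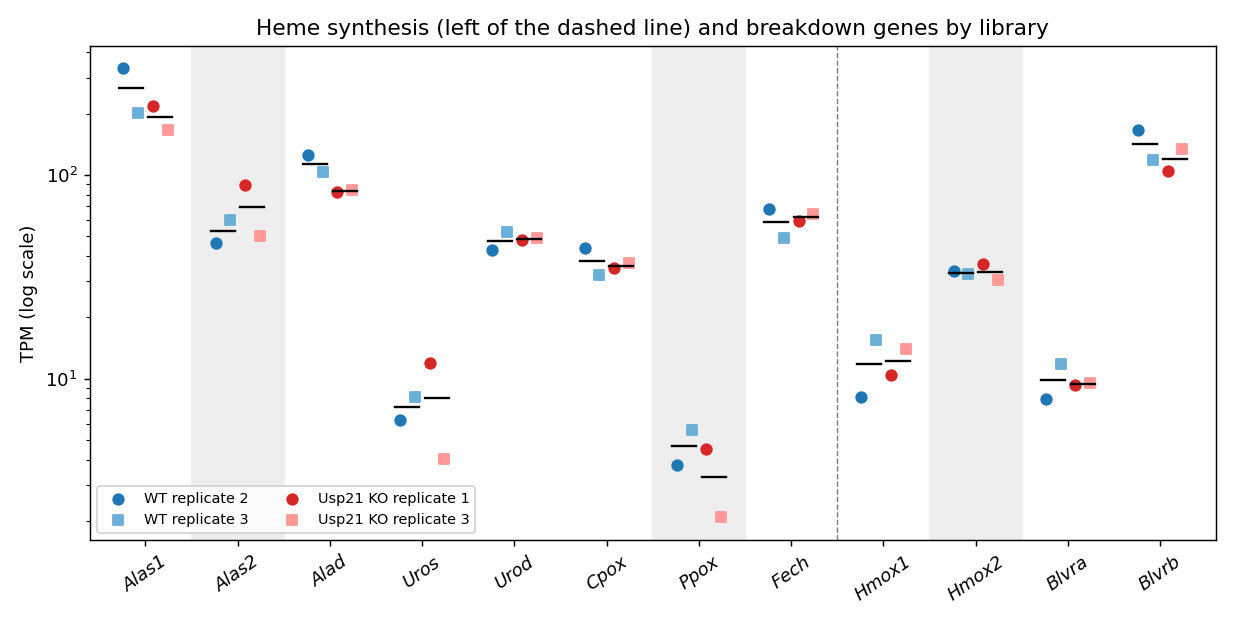
TPM (log axis) of the 9 heme genes and, on grey, of 3 other enzymes of the pathway (*Alas2*, *Ppox*, *Hmox2*) in each library, in the order of the pathway. Each point is 1 library and each black line the mean of the 2 libraries of a genotype. The KO points of *Alad* (82.4 and 84.5 TPM) lie below both WT points, and the other genes shown overlap.

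*Alas1* (ENSMUSG00000032786, GRCm38 chromosome 9, 106233455 to 106248654), which encodes the rate-limiting enzyme, was the most abundant of the 9 genes in every library. Its TPM values were 333 (replicate 2) and 201 (replicate 3) in WT, against 217 (replicate 1) and 166 (replicate 3) in KO. WT replicate 2 was the highest and KO replicate 3 the lowest, and KO replicate 1 lay between the WT libraries, which made the genotypes overlap. The means were 267 ± 93.8 TPM for WT against 192 ± 36.1 TPM for KO (SD, n = 2 per genotype). The log2 fold change was -0.44 (with a standard error, SE, of 0.29 and a limma adjusted p = 0.586), and its 95% interval ran from 0.446-fold to 1.22-fold. WT replicate 2 carried much of this difference, which became -0.08 when it was omitted and -0.81 when WT replicate 3 was omitted. The gap of 0.73 between the WT libraries on the log2 scale was larger than the difference between genotypes. *4930500F10Rik* lies on the other strand within the *Alas1* locus, and the strand setting of the quantification was not given.

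*Alad* (ENSMUSG00000028393, chromosome 4, 62509169 to 62519918), whose enzyme joins the products of ALAS1 into porphobilinogen, was the 1 gene of the 9 with genotypes that did not overlap. It had TPM values of 125 and 103 in WT against 82.4 and 84.5 in KO, so both KO libraries were lower. Groups apart in this direction were found for 10.9% of all tested genes, and groups apart in either direction for 45.3%. The mean was 114 ± 15.3 TPM for WT against 83.5 ± 1.5 TPM for KO, a difference of -26.6% (SD, n = 2 per genotype). The log2 fold change was -0.43 (SE 0.17, limma adjusted p = 0.475), with a 95% interval from 0.547-fold to 1.00-fold. As libraries were omitted one by one it stayed between -0.57 and -0.30, and it was -0.57 with upper quartile scaling. Over these and the other settings on the TPM values, the adjusted p in limma lay between 0.444 and 0.843.

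*Uros* (ENSMUSG00000030979, chromosome 7, 133686243 to 133710072), whose enzyme closes the tetrapyrrole ring, was the least abundant of the 9 genes by mean and the most variable between the KO libraries. It had TPM values of 6.27 and 8.17 in WT against 11.997 and 4.05 in KO, so that 1 KO library was the highest and the other the lowest of the 4. The mean TPM was 11.1% higher in KO while the log2 fold change was -0.01 (SE 0.47), so even the sign depended on the scale. Its 95% interval ran from 0.443-fold to 2.22-fold, the widest of the 9 genes. *Bccip* overlaps *Uros* on the other strand, as *Gpr15* does *Cpox*.

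*Urod* (ENSMUSG00000028684, chromosome 4, 116989965 to 116994413), which encodes uroporphyrinogen decarboxylase, had TPM values of 42.9 and 52.3 in WT against 47.9 and 49.0 in KO, with both KO values between the WT values. Its log2 fold change was 0.03 (SE 0.18), and the 95% interval ran from 0.749-fold to 1.40-fold. *Cpox* (ENSMUSG00000022742, chromosome 16, 58670292 to 58717636), which encodes coproporphyrinogen oxidase, had TPM values of 43.6 and 32.3 in WT against 34.7 and 36.8 in KO. Both KO values again lay between the WT values, with a log2 fold change of -0.07 (SE 0.21) and an interval from 0.667-fold to 1.36-fold.

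*Fech* (ENSMUSG00000024588), whose enzyme inserts the iron, had TPM values of 68.2 and 49.0 in WT against 59.5 and 64.6 in KO, again with both KO values inside the range of WT. The log2 fold change was 0.10 (SE 0.21) with an interval from 0.741-fold to 1.55-fold. Of the 31-base words in its exons, 5.91% also occur in other genes, compared with 3.76% for *Cpox* and 0% for *Alas1* and *Alad*, so a share of its reads may be split with those genes. *Ppox*, which encodes the enzyme just before FECH, lies 758 bases from *Usp21* on chromosome 1 (171275990 to 171281186). It had TPM values of 3.79 and 5.58 in WT against 4.53 and 2.08 in KO, with KO replicate 1 between the WT libraries. Its log2 fold change was -0.44 (SE 0.37, limma adjusted p = 0.658), and it was -0.02 without KO replicate 3 and -0.87 without KO replicate 1. A part of the deleted allele or of flanking sequence from the ES cells in these values was not tested.

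**Figure D2:**
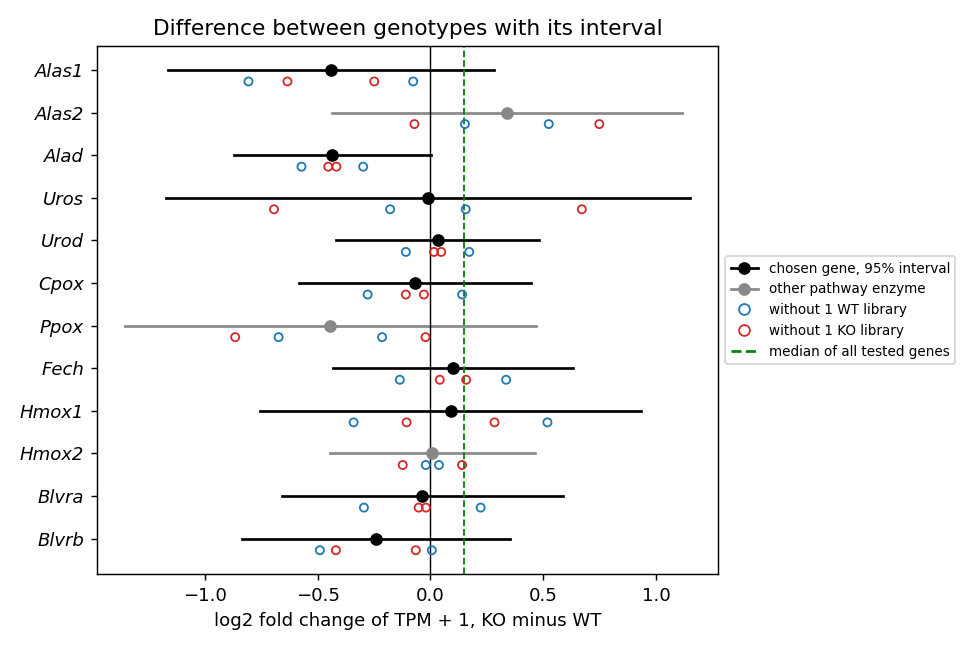
Log2 fold change of TPM + 1 (KO minus WT, horizontal axis) of the 9 heme genes (black) and 3 other pathway enzymes (grey), with 95% intervals from limma. Open circles give the value with 1 WT library (blue) or 1 KO library (red) left out, and the dashed line is the median of all tested genes at 0.15. The open circles of *Alas1*, *Alad* and *Ppox* stay below 0, while those of *Uros* run from -0.69 to 0.67.

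Among the breakdown genes, *Hmox1* (ENSMUSG00000005413, chromosome 8, 75093621 to 75100589), the inducible heme oxygenase, had TPM values of 8.10 and 15.5 in WT against 10.4 and 13.9 in KO. WT replicate 2 was the lowest and WT replicate 3 the highest, and both KO libraries lay between them. The log2 fold change was 0.09 (SE 0.34) with an interval from 0.592-fold to 1.91-fold, and it ranged from -0.34 without WT replicate 2 to 0.52 without WT replicate 3. *Hmox2*, the constitutive heme oxygenase, was the more abundant of the pair in every library, at TPM values of 33.8 and 32.5 in WT against 36.6 and 30.4 in KO. The ratio of *Hmox2* to *Hmox1* was 4.18 and 2.09 in WT against 3.53 and 2.18 in KO, and the genotypes overlapped.

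*Blvra* (ENSMUSG00000001999, chromosome 2, 127070665 to 127097084) had TPM values of 7.91 and 11.8 in WT against 9.28 and 9.51 in KO. The KO libraries lay close together within the range of WT, and the log2 fold change was -0.04 (SE 0.25) with an interval from 0.634-fold to 1.5-fold. *Blvrb* (ENSMUSG00000040466, chromosome 7, 27447978 to 27466144), a flavin reductase also named biliverdin reductase B, had TPM values of 167 and 118 in WT against 105 and 134 in KO. The genotypes overlapped, with a log2 fold change of -0.24 (SE 0.24, limma adjusted p = 0.708) and an interval from 0.561-fold to 1.27-fold. *Blvrb* was between 10.02 and 21.05 times as abundant as *Blvra* in TPM. Without WT replicate 2 the difference in *Blvrb* was 0.0059 on the log2 scale.

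The levels of the 9 genes by mean TPM over the 4 libraries ran from *Alas1* (229 TPM) through *Blvrb* (131), *Alad* (98.6), *Fech* (60.3), *Urod* (48.0), *Cpox* (36.9), *Hmox1* (11.97) and *Blvra* (9.61) to *Uros* (7.62). Each of *Alas1*, *Blvrb*, *Alad*, *Cpox* and *Hmox1* was above the next gene in 4 of 4 libraries. *Fech* against *Urod*, *Urod* against *Cpox* and *Blvra* against *Uros* kept this order in 3 of 4 libraries. The ranges over the 4 libraries did not overlap between *Alad* and *Fech* or between *Cpox* and *Hmox1*, and overlapped for the other 6 neighbouring pairs. *Alas1* made up 53.9% and 45.0% of the summed TPM of the 6 synthesis genes in WT and 47.9% and 41.0% in KO, with KO replicate 1 between the WT libraries. Compared with all tested genes, *Alas1* was above 95.6% of them by mean TPM and *Uros* above 50.9%.

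Ratios between genes within a library do not depend on how the libraries are scaled. Of the 36 ratios between the 9 genes, 7 (those with *Alas1*, *Alad*, *Cpox*, *Fech*, *Urod* or *Blvrb*) did not overlap between genotypes, compared with 42.5% of all ratios between 2 tested genes above 0 TPM in every library. *Fech* took part in 4 of the 7 and *Alad* in 3. The ratio of *Alad* to *Fech* was 1.82 and 2.10 in WT against 1.38 and 1.31 in KO. The ratio of *Alas1* to *Fech*, which compares the first with the last step, was 4.88 and 4.10 in WT against 3.65 and 2.57 in KO. The ratio of *Alas1* to *Alad* was 2.68 and 1.95 in WT against 2.64 and 1.97 in KO, nearly the same pair of values in both genotypes. Against the 9421 other genes, *Alad* was lower in both KO libraries than in both WT libraries for 68.1% of the ratios and *Alas1* for 53.2%. The median of this share over tested genes was 14.6%, and it was 9.72% for *Hmox1*. All ratios of a gene reuse its same values, so this share is no separate evidence beside the difference of that gene.

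**Figure D3:**
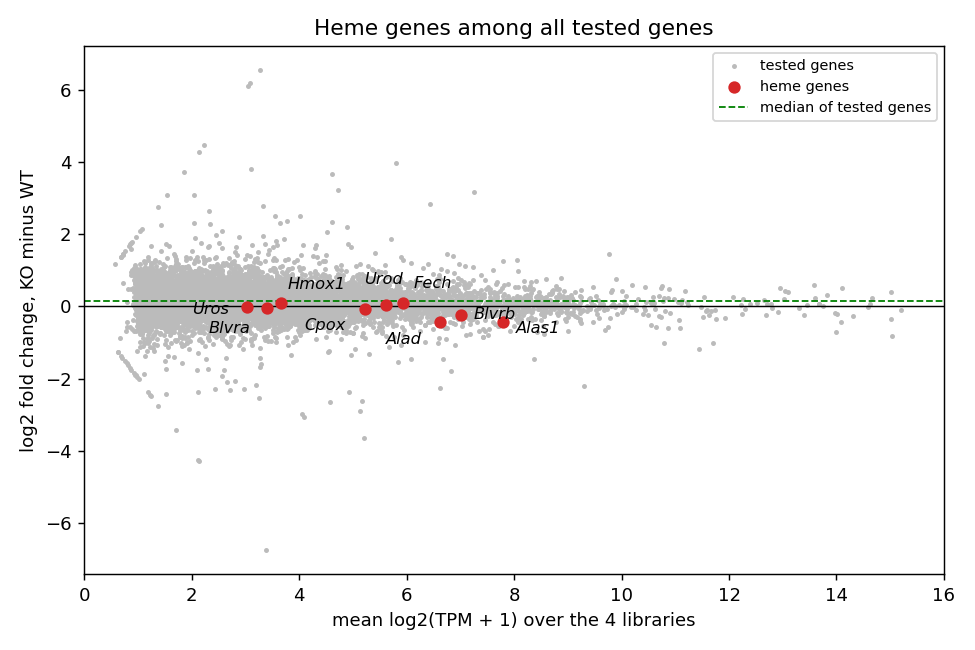
Log2 fold change (KO minus WT) against mean log2(TPM + 1) over the 4 libraries for the 9581 tested genes (grey) and the 9 heme genes (red). All 9 red points lie between -0.44 and 0.10, below the dashed line at the median of all tested genes (0.15).

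The wider pathway was followed in 6 lists of 72 genes, of which 70 were tested. After adjustment 0 of the 70 had a p under 0.05 in limma, and 11 had an unadjusted p under 0.05, with 9 higher and 2 lower in KO. On the recovered reads, 28 of the 72 genes could be tested, and edgeR and DESeq2 gave 0 adjusted calls and 1 and 0 unadjusted calls. Many of these genes had few reads, such as 1 in all for *Hpx* and for *Ugt1a1*, so these counts say little on a difference. The median log2 fold change was 0.00114 over the 70 genes, with 35 higher and 35 lower in KO. Of *Alas2*, *Ppox* and *Hmox2*, 0 had an unadjusted p under 0.05. Among the 17 genes of heme and porphyrin transport and mitochondrial supply, 11 were higher and 6 lower in KO, and 2 had an unadjusted p under 0.05. *Clpx*, which encodes a mitochondrial unfoldase known to act on ALAS, had TPM values of 32.0 and 18.9 in WT against 76.2 and 65.0 in KO. The KO values were both above the WT values, with a log2 fold change of 1.48 (SE 0.28, limma adjusted p = 0.373), between 1.11 and 1.84 as libraries were omitted one by one. *Abcg2*, an exporter of porphyrins, had TPM values of 34.4 and 27.8 in WT against 41.3 and 56.4 in KO. *Slc48a1*, a heme transporter, had TPM values of 20.3 and 15.3 in WT against 12.7 and 13.7 in KO, with an unadjusted p of 0.127 from limma.

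Of the 6 genes of bilirubin uptake, conjugation and export, 1 had an unadjusted p under 0.05. This was *Abcc2*, which exports conjugated bilirubin into bile, at TPM values of 38.3 and 42.7 in WT against 63.8 and 54.5 in KO (log2 fold change 0.53, SE 0.18, limma adjusted p = 0.464). *Ugt1a1*, which conjugates bilirubin, had TPM values of 216 and 196 in WT against 174 and 213 in KO, and its exons are shared with other *Ugt1a* genes, so its values are uncertain. In the list of 5 scavenging genes 0 had an unadjusted p under 0.05. *Hpx*, the plasma carrier of heme, had TPM values of 2680 and 4614 in WT against 3727 and 2930 in KO.

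Regulators of *Alas1* and *Hmox1* held 6 of the 11 genes with an unadjusted p under 0.05, all 6 higher in KO, among 20 tested. They were *Bmal1* (also called *Arntl*), *Clock*, *Hnf4a*, *Nfe2l1*, *Hsf1* and *Foxo1*. *Bmal1* had TPM values of 0.241 and 0.243 in WT against 5.89 and 4.05 in KO, and *Clock* had TPM values of 1.23 and 1.02 in WT against 5.07 and 3.24 in KO. At such low WT values the size of the difference depended on the pseudocount. With pseudocounts of 0.1 and 5 the log2 fold change was 3.87 and 0.92 for *Bmal1*, and 1.77 and 0.57 for *Clock*. *Hnf4a*, a nuclear receptor of hepatocytes, had TPM values of 112 and 105 in WT against 171 and 155 in KO, with an adjusted p of 0.464 from limma. *Ppargc1a*, which encodes PGC-1α, had TPM values of 0.681 and 0.482 in WT against 2.43 and 1.19 in KO. *Alas1* itself had overlapping genotypes beside these values, and its mean was lower in KO. *Nr1d1*, which encodes the clock repressor REV-ERBα, had TPM values of 33.9 and 9.92 in WT against 25.1 and 26.9 in KO. *Nfe2l2* (NRF2), an activator of *Hmox1*, had TPM values of 14.2 and 16.7 in WT against 15.1 and 13.9 in KO, and the repressor *Bach1* had TPM values of 3.28 and 4.43 in WT against 5.09 and 4.55 in KO. A part of the clock phase or of feeding in the values of the heme genes was not tested.

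Among 18 genes of heme-containing proteins and their partners, 6 were higher and 12 lower in KO, and 2 had an unadjusted p under 0.05. *Por*, the reductase that passes electrons to P450 enzymes and to heme oxygenase, had TPM values of 175 and 168 in WT against 81.8 and 81.4 in KO. The log2 fold change of *Por* was -1.06 (SE 0.15, limma adjusted p = 0.203) and stayed between -1.09 and -1.03 as libraries were omitted one by one. *Cyp2a5*, which encodes a P450 enzyme, had TPM values of 495 and 616 in WT against 222 and 177 in KO. Its log2 fold change was -1.47 (limma adjusted p = 0.188), and its values are uncertain because *Cyp2a4* is nearly identical in sequence. *Cyp4a14* differed by -2.63, but WT replicate 2 carried this, at 356 TPM against 8.76 to 21.6 TPM in the other libraries, and it was -0.64 without that library. The counts of these lists can be read beside the 10.5% of all tested genes with an unadjusted p under 0.05.

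**Figure D4:**
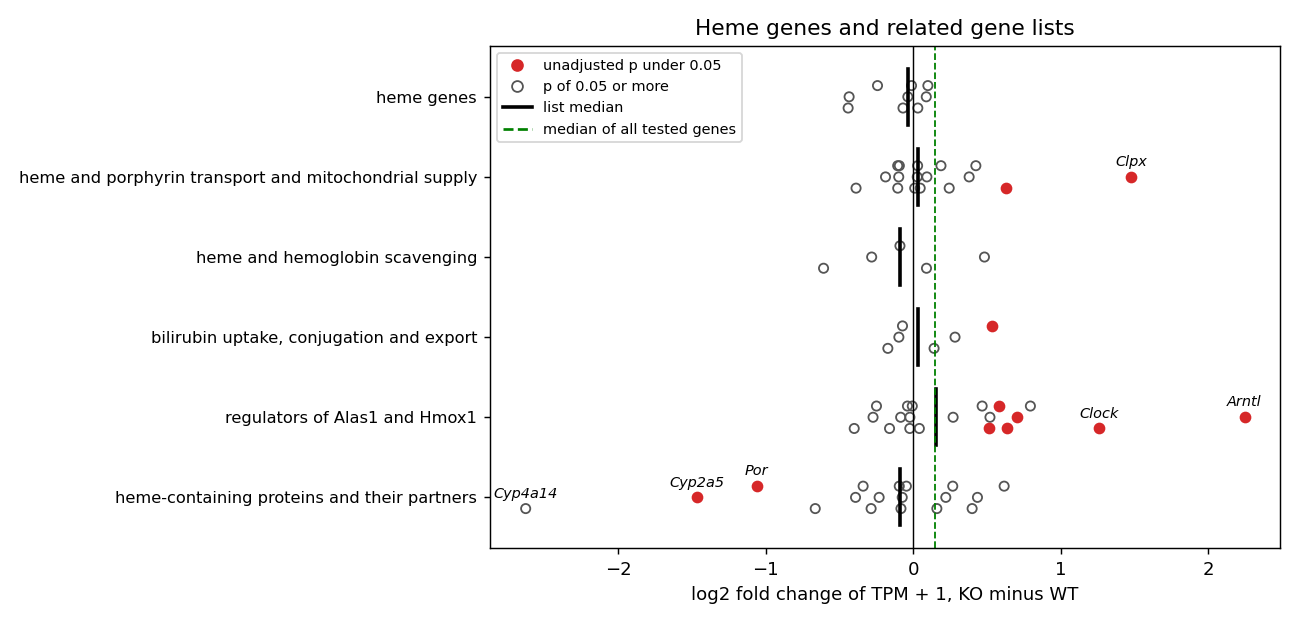
Log2 fold change of TPM + 1 (KO minus WT) of the tested genes of the heme gene set and of 5 related lists. Each circle is 1 gene, filled red where the unadjusted p was under 0.05 in limma, with black bars at list medians and the dashed line at the median of all tested genes. The heme genes hold 0 red circles, and the regulators hold 6, all above 0.

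Liver samples can hold other cells that use heme enzymes, and in bulk RNA fewer cells of a type and less RNA per cell cannot be told apart. The 8 hepatocyte markers were all present in every library, which matches the labelled tissue. They summed to 70905 and 56538 TPM in WT against 59743 and 49318 TPM in KO, the same order of the 4 libraries as for *Alas1*. *Alb* (albumin) made up most of this sum, with 43181 TPM in WT replicate 2, and by log2 fold change 4 of the 8 markers were higher and 4 lower in KO. *Alb* and *Asgr1* were lower in both KO libraries, while *Tat* had TPM values of 278 and 458 in WT against 543 and 705 in KO, and *Fgb* 1056 and 1269 in WT against 2106 and 1337 in KO. The part of these markers in *Alas1* was not tested. *Alas2*, the erythroid counterpart of *Alas1*, had TPM values of 46.3 and 60.2 in WT against 89.4 and 50.2 in KO, and *Alas1* was between 2.43 and 7.19 times as abundant. Of 10 erythroid markers, 9 were found and 5 tested, all 5 lower in KO by mean. The 4 hemoglobin genes had summed TPM values of 865 and 832 in WT against 812 and 669 in KO, while *Slc4a1*, *Epb42* and *Rhag* had means under 1 TPM and *Rhag* was listed at 0 in every library. The summed hemoglobin genes were lower in both KO libraries than in either WT library. Taken singly, *Hbb-bt* and *Hba-a1* lay apart in this way, while *Hbb-bs* and *Hba-a2* overlapped between genotypes. Groups apart and lower in KO were found for 10.9% of all tested genes. The 5 cholangiocyte markers had summed TPM values of 14.6 and 15.9 in WT against 37.9 and 24.5 in KO. *Spp1* made up most of this sum, at 13.2 and 12.7 in WT against 33.4 and 20.7 in KO. Of the 5 markers, 3 had means under 1 TPM. The 6 endothelial and stellate markers summed to 81.5 and 64.9 in WT against 93.5 and 95.7 in KO. Among them *Dcn* was higher in both KO libraries, at 42.6 and 34.1 in WT against 62.8 and 48.4 in KO. The genotypes overlapped for *Stab2*, *Clec4g*, *Pecam1*, *Lrat* and *Col1a1*. The part of blood cells, cholangiocytes and endothelial or stellate cells in the heme genes was not tested. *Hmox1* is also made by macrophages, and the 8 Kupffer cell and macrophage markers had summed TPM values of 102 and 114 in WT against 57.4 and 151 in KO. *Hmox1* was lowest in WT replicate 2 and these markers were lowest in KO replicate 1, and their part in *Hmox1* was not tested.

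The genes most like *Alas1* were taken as the 5 genes outside the lists, among 3948 with a mean of at least 10 TPM, whose centred log2(TPM + 1) values came closest to those of *Alas1* over the 4 libraries. They were *Coa7*, *Gm5617*, *Pir*, *Ehd1* and *Tbcel*, with root mean square differences of 0.04 to 0.06. *Coa7*, the closest, had TPM values of 37.0 and 23.2 in WT against 25.8 and 18.7 in KO. As for *Alas1*, WT replicate 2 was the highest and KO replicate 3 the lowest. A likeness over 4 libraries describes these libraries alone.

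The authors' second table, of TMM-normalized CPM, holds little on these genes, as on several abundant genes of hepatocytes. *Alb* had 9 and 6 recovered reads in WT against 2 and 1 in KO, and *Serpina1a* had 0 in every library. Of the 9 genes, 6 were listed at 0 in all 4 libraries, *Alas1* among them. *Alad*, *Uros* and *Urod* had at most 3 recovered reads in any library, which is no more than a count of 0 allows, and fold changes fitted to them rest on those few reads. The libraries held between 102898 and 148164 recovered reads in that table.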

How the data were processed

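Liver RNA of WT and *Usp21* KO mice was sequenced on an Illumina MiSeq as 2 libraries per genotype, and libraries were grouped by their labels. The authors deposited TPM per Ensembl gene, estimated with salmon against an mm10 transcriptome, and a count-based signal, TMM-normalized CPM from HTSeq counts and edgeR. The submitters' processing notes also name Partek and deepTools, and versions, annotation release and strand setting are not given in the sources used here. The matching log2 tables and no other column (0) were left unused. TPM keeps no depth. CPM values were whole multiples of 1 read (100% within 0.02 reads), which gave the recovered reads.

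TPM was tested with limma 3.58.1 in R 4.3.3 (lmFit, and eBayes with trend), with a pseudocount of 1, a mean of at least 1 TPM and no covariate. Prior degrees of freedom were 3.62, which draws each variance towards a trend over all genes. Whether a library holds 1 mouse or several is not given, and p-values measure the spread between these libraries, which may be technical. Alternatives were pseudocounts of 0.1 and 5, other filters, upper quartile scaling, no moderation, limma on CPM, edgeR 4.0.16 and DESeq2 1.42.0 on the recovered reads, and each library left out. GENCODE M21 (GRCm38) gave coordinates. The scripts were tested on simulated data.

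The members and gene lists were chosen with earlier results of these data known. Genes named are the members, list genes with an unadjusted p under 0.05 or a 2-fold change, enzymes and regulators next to a member, and the 5 genes most like *Alas1*. *Bmal1* was matched by its Ensembl identifier. Sums, ratios and the sets of markers are descriptions without a test. Some genes of these lists are counted but not reported here by name.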

Additional observations from a re-analysis of the deposited data

How the results depend on the processing

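The TPM table keeps no depth, and 2 libraries per genotype limit the precision of every value. The CPM values hold few or 0 reads for several abundant liver genes, so the runs on them say little on how the results depend on processing. No paired analysis was possible because the labels give no pairing of the libraries. The count of heme genes with an adjusted p under 0.05 stayed at 0 under every alternative run, and so did that of the related lists. The count with an unadjusted p under 0.05 moved from 0 to 1 with a pseudocount of 5, without the filter, with a minimum mean of 5 TPM and with upper quartile scaling (*Alad* in each), and was 0 to 1 with each library left out (*Alas1* without WT replicate 3). Heme genes with groups apart numbered 1 in the main run, beside 45.3% of all tested genes. They numbered 2 with upper quartile scaling (*Alas1* and *Alad*). The share over all genes was not computed there, so the 2 cannot be read beside the 45.3%. The scaled values of *Alas1* were 349 and 211 in WT against 200 and 165 in KO, so the genotypes lay only just apart. With a library left out, 1 library faces 2 and groups lie apart more easily, so no count is given.

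Of the related lists, 11 genes had an unadjusted p under 0.05, compared with 7 with a minimum mean of 5 TPM, 7 without moderation, 2 on CPM with limma, 1 with edgeR, 0 with DESeq2, and 7 to 12 with a library left out (7 without WT replicate 3). The 8 adjusted calls over all genes became 4 without the filter, 0 without moderation, 1 on CPM with limma, 12 with edgeR, 1 with DESeq2 and 0 to 7 with a library left out (0 without KO replicate 1, and 5 without WT replicate 3 or KO replicate 3). The 1005 unadjusted calls became 639 with a minimum mean of 5 TPM, where fewer genes were tested, 213 on CPM with limma, 168 with edgeR, 21 with DESeq2 and 567 to 1164 with a library left out (567 without WT replicate 2 and 618 without WT replicate 3).

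Upper quartile scaling turned *Urod* to -0.10, *Fech* to -0.032, *Hmox1* to -0.034 and *Hmox2* to -0.12, and a pseudocount of 5 turned *Uros* to 0.026. With a library left out, the log2 fold change ran from -0.69 to 0.67 for *Uros*, -0.11 to 0.17 for *Urod*, -0.28 to 0.14 for *Cpox*, -0.14 to 0.34 for *Fech*, -0.34 to 0.52 for *Hmox1*, -0.29 to 0.22 for *Blvra* and -0.49 to 0.0059 for *Blvrb*. It ran from -0.071 to 0.75 for *Alas2*, -0.12 to 0.14 for *Hmox2*, -0.48 to 0.30 for *Hpx*, -0.25 to 0.051 for *Ugt1a1*, -0.37 to 1.31 for *Nr1d1* and -0.20 to 0.028 for *Nfe2l2*. *Alas1* and *Alad* stayed below 0 in each of these fits on TPM. On CPM with limma, edgeR and DESeq2, *Alad* was 0.25, 0.73 and 0.60, and *Uros* 0.75, 1.32 and 1.58. *Alas2* and *Nfe2l1*, with 1 read each in all, were both -1.56, -2.36 and -1.52. The median of the 3 heme genes there was 0.75, 1.32 and 1.58, and 1, 2 and 2 of them passed 2-fold, all on 3 reads or fewer per library. The cause of the other changes was not tested.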
